A study of Mus musculus with 5 samples.

Results

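The cells described here are barcodes of a dissociated mouse tumour that carried transcripts of Crabp1 and Krt20, the pair of genes used to mark tumour-like cells, and few transcripts of proliferation genes. The cells were selected on these measured counts: a barcode was a member if it had at least 200 detected genes, at most 15% mitochondrial unique molecular identifiers (UMIs, tags that each count 1 captured transcript), at least 5000 UMIs, at least 10 UMIs of Crabp1, at least 1 of Krt20 and 0 of Ptprc, the pan-leukocyte gene. It also had fewer than 2 UMIs of Dcn and Lum, which mark fibroblasts, and fewer than 2 of Mki67, Top2a and Birc5, which mark dividing cells. In the control library 156 barcodes met the rule, 2.85% of the 5482 that passed the gene and mitochondrial limits (exact Clopper-Pearson 95% interval 2.42% to 3.32%) out of 5649 deposited. In the anti-CTLA-4 library 0 of 4083 did, which allows a share of up to 0.0735% of cells at a floor of 3 barcodes (Clopper-Pearson upper bound 0.0903%). The members' values below therefore come from the control library alone, and no effect of treatment could be measured in these cells.

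The mice were BALB/c, 6 weeks old, and carried subcutaneous tumours of CT26, a BALB/c colon carcinoma line. The control group received phosphate-buffered saline and the other group 100 µg of the anti-CTLA-4 antibody 9H10 into the peritoneum, on days 5, 8 and 11 after inoculation in both groups, and tissue was taken on day 13. Each group had 1 gene expression library, made with a tumour dissociation kit and 10x Genomics 5′ chemistry for a target of 5000 cells, and the labels call the material only tissue. How many mice went into a library, and whether cells were pooled, is not stated in the labels. Since each group is a single library, differences between cells have no replicates behind them, no test was made, and every interval covers counting error only.

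CT26 is a poorly differentiated carcinoma line, and the cells of a growing graft can meet low oxygen, interferon from immune cells and a matrix made by fibroblasts. Under low oxygen the factor HIF-1α is no longer degraded and binds short DNA elements near genes of glucose uptake, glycolysis, mitochondrial turnover and acid handling. Major histocompatibility complex (MHC) class I molecules carry peptides to CD8 T cells, and interferons raise their heavy chains, β2-microglobulin, the immunoproteasome and the TAP peptide transporter together. Adhesion genes hold cells to each other (cadherins and junctions) or to matrix (integrins and their ligands), and growth factor ligands such as those of the EGF receptor act on the secreting cell or its neighbours.

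Hypoxia and glycolysis genes varied together from cell to cell (below), so the upstream sequences of 3 of these genes are shown. Bnip3 encodes a mitophagy receptor, Pgk1 phosphoglycerate kinase and Ldha lactate dehydrogenase. The sequences are RefSeq's for GRCm38.p6, the 250 bases before the annotated start, 5′ to 3′ on the strand of the gene, for Bnip3 at chr7:138909507-138909756 (minus strand), Pgk1 at chrX:106186850-106187099 (plus strand) and Ldha at chr7:46845554-46845803 (plus strand). Ldha has another annotated start, whose window at chr7:46846832-46847081 held 0 matches and is not shown. Capitals mark ACGTG or its reverse complement CACGT, the core letters of a HIF site, which CACGTG, the E-box, also contains on both strands.
Bnip3: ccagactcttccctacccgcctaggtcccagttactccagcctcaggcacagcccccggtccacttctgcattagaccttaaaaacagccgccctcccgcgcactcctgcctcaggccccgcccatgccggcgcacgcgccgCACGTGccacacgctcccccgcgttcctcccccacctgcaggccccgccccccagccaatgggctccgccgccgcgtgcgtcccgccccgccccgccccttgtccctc
Pgk1: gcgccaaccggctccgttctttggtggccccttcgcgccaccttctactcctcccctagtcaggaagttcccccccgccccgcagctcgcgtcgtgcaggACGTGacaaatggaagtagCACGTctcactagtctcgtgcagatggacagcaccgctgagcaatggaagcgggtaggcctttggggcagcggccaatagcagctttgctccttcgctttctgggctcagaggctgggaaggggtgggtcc
Ldha: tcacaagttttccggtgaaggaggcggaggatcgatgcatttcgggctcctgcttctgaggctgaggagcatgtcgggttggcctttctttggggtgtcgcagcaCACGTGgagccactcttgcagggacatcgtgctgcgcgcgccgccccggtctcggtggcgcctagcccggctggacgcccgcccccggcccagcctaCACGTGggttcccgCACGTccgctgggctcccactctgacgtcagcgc
The letters were found in such a window of 14 of the 22 hypoxia genes with a RefSeq entry (63.6%), of 9 of 17 glycolysis genes (52.9%) and of 18.5% of all 27025 genes. The hypoxia list was chosen as targets of low oxygen, so its share describes the list and not these cells. A match of letters is a description and not a measured site, and no binding was measured here. Slc2a1, the glucose transporter GLUT1, had 1 match, 36 bases before its start, and P4ha2, a prolyl hydroxylase of collagen, had 1 match, 78 bases before its start. The 3 genes shown all had matches and do not stand for the others. Gpi1, Eno1, Gapdh, Gbe1 and Higd1a had 0 matches in the 250 bases before their listed starts. Sequences of Ero1l and Ndrg1 were not available.

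The members carried a median of 21957.5 UMIs (5174 to 48397) and 3768 genes, with a median mitochondrial share of 1.0%. Crabp1, a cytosolic retinoic acid binding protein, had between 10 and 318 UMIs per member with a median of 67, and Krt20, an intestinal keratin, between 1 and 49 with a median of 4. These 2 genes chose the cells and support no label. In T cells of the same library, which should lack the gene, Crabp1 stood at 2.76 UMIs per 10000 against 38.0 in members. The T cells were limited to fewer than 10 Crabp1 UMIs, so 2.76 measures its background in droplets only below that limit. Few barcodes lay at the Crabp1 limit (1 at 9 UMIs and 1 at 10), while 35 members had 1 UMI of Krt20 and 48 barcodes that met every other limit had 0. For the proliferation genes 33 members had 1 UMI and 12 barcodes outside the limit had 2.

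The limit on Dcn and Lum decided most of the membership. Without it 1165 control barcodes met the rule, so it set aside 1009, and there was no gap at the limit: 77 members had 0 UMIs of the 2 genes, 79 had 1, and the barcodes outside it began with 57 at 2 and 41 at 3. In those 1009 barcodes Dcn, a matrix proteoglycan, stood at 10.8 UMIs per 10000 against 67.1 in fibroblasts of the same library, and Lum at 0.0693 against 8.10. They are called Dcn-bearing below and serve as a comparison group. In the anti-CTLA-4 library 6 barcodes met every limit except this one, with 2 to 57 UMIs of Dcn.

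Markers other than the chosen pair gave a mesenchymal and not an epithelial picture. Of 27 genes of epithelial and intestinal identity 18 had 0 UMIs in all 156 cells, among them Krt8, Krt19, Cdh1 (E-cadherin), Vil1 and Muc2, where 3 UMIs would be 0.00866 per 10000. Epcam and Krt18 had 1 UMI each, Cdx2, an intestinal transcription factor, had 21, and Klf5 had 366. The 19 mesenchymal genes together stood at 310.8 UMIs per 10000, above 35.2 in keratinocytes and below 489 in fibroblasts. Vim and S100a6 made up 85.1% of the members' sum. Gene by gene, 9 of 18 were at least 2-fold lower than in fibroblasts and 4 higher, beside 13.3% lower and 7.27% higher over all genes. Vim (vimentin) was present in every member, with 7 to 212 UMIs per 5000 and a median of 56. S100a6 had a median of 58.5 (6 to 201). The transcription factors Prrx1 (2.52 per 10000), Twist2 (0.837) and Twist1 (0.569) were all detected, while Col1a1 was 0.733 per 10000, a 0.00833-fold level of that in fibroblasts. The tumour-like label thus has no support here from independent colon epithelial genes, most of which were at 0.

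Markers of other cells were far below their level in those cells, but fibroblast markers were not at 0. The lists hold genes that chose the groups (Dcn and Lum, Krt5 and Krt14, Ptprc), so part of each contrast was set by the rules. With Dcn and Lum left out, all 7 fibroblast markers compared were at least 2-fold lower than in fibroblasts (median log2 ratio -5.67). With Krt5 and Krt14 left out, all 6 keratinocyte markers were lower than in keratinocytes (-10.2). The 9 fibroblast markers summed to 5.49 UMIs per 10000 against 332 in fibroblasts, 1.15 in T cells and 1.77 in macrophages, with 0 UMIs of Postn. Their part in the results was not tested. The 8 keratinocyte markers summed to 0.335 against 362 in keratinocytes, the 7 endothelial markers to 0.0346 and the 4 Schwann cell markers to 0.00866. Leukocyte markers were uneven. In 6 members the 14 leukocyte and 4 MHC class II genes summed to 27 to 393 UMIs, against at most 7 in the other 150 and 0 in 82 of them. Those 6 cells held 776 of the 826 UMIs of Cd74, H2-Aa, H2-Ab1 and H2-Eb1 (93.9%). Cd74, the invariant chain, had a ratio of 4.70 over Dcn-bearing cells with those 6 members and 0.292 when they alone were left out. The Dcn-bearing group kept its own 14 barcodes with 20 or more such UMIs, so the 0.292 is not a like comparison. None of the 156 barcodes had a T cell receptor contig, and 0 were among the 20 barcodes kept in both libraries.

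Non-cycling here means only fewer than 2 UMIs of the proliferation genes Mki67, Top2a and Birc5 together. The reference group is the 161 cycling tumour-like barcodes of the same library, with the same limits but at least 2 UMIs of these genes. They were deeper, with a median of 29987 UMIs. Values are ratios of summed UMI shares with exact conditional binomial 95% intervals, for genes with at least 50 UMIs over both groups, and a gene is counted as higher or lower past 2-fold. Over all 7973 such genes 1.56% were higher in non-cycling cells and 8.24% lower, 9.8% either way, and the median log2 ratio over these genes was -0.20. These were 124 higher and 657 lower genes, against 393 higher and 705 lower when the limit on Dcn and Lum was lifted in both groups. The groups were split by proliferation genes, so ratios between them are descriptions. Among the lowest were genes of mitosis: Plk1 had 2 UMIs against 411, Ccnb1 3 against 415, and Cep55 0 against 182, at least 44.2-fold lower with a floor of 3 UMIs over the group.

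Hypoxia target genes had the largest share of higher genes among the lists compared. Of 31 genes 27 had a UMI in members and 22 could be compared, and 9 of the 22 were at least 2-fold higher than in cycling cells and 0 at least 2-fold lower, against 1.56% of all genes higher. The list summed to 35.7 UMIs per 10000 (exact Poisson 95% interval 35.1 to 36.4) against 16.9 in cycling cells. Its median log2 ratio was 0.84. At 0 UMIs in members were 4 genes of the list, Slc2a3, Egln3, Pfkfb3 and Ak4. The choice of list was made with earlier results of these data known, so the counts are a description.

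**Figure D1:**
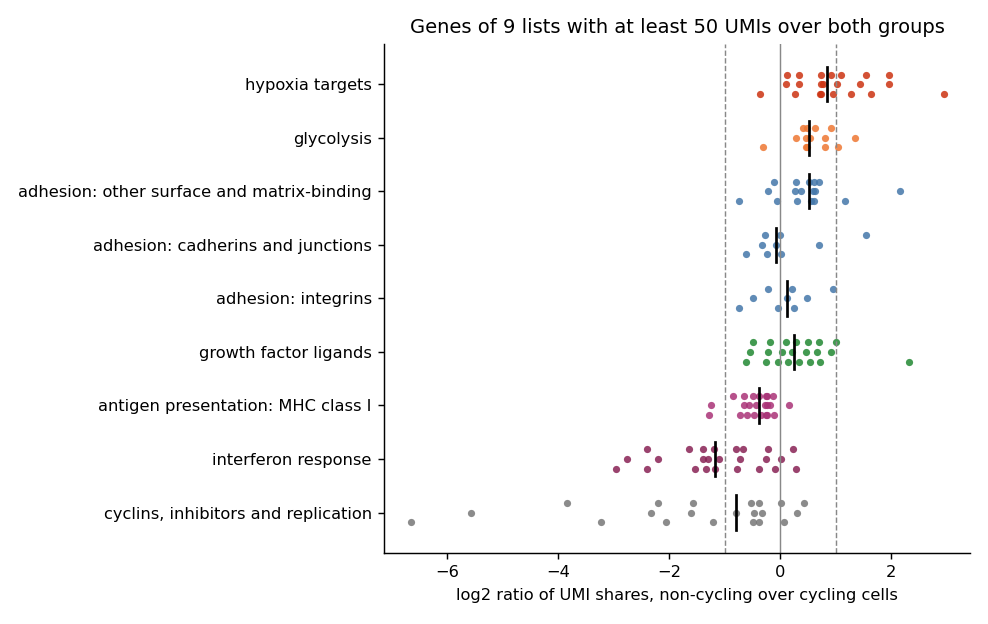
Log2 ratio of UMI shares in the 156 non-cycling over the 161 cycling tumour-like cells (horizontal axis) for the genes of 9 lists with at least 50 UMIs over both groups and at least 1 UMI in each. Each point is a gene, black bars are list medians and dashed lines mark 2-fold. Hypoxia genes reach past the right dashed line for 9 of 22 genes, and interferon response genes past the left one for 14 of 25.

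Among the hypoxia genes Ndrg1, a stress-responsive gene (15:66929318-66969640), had 0 to 10 UMIs per 5000 across members with a median of 1. Its summed level was 4.76 per 10000 against 1.22 in cycling cells, a ratio of 3.89 (3.54 to 4.29). Bnip3 had a median of 1 (0 to 14) and a ratio of 2.72 (2.52 to 2.94). In both genes most cells had few UMIs and a minority carried most of the signal, since the 90th percentile was 6 UMIs for Ndrg1 and 8 for Bnip3. Ero1l, an oxidoreductase of the endoplasmic reticulum, had a ratio of 3.11 (2.80 to 3.45), with 11.2% of its UMIs in 1 cell. Ankrd37 had a ratio of 2.92 (2.55 to 3.35) and P4ha2 of 3.88 (2.86 to 5.33). Car9, the cell surface carbonic anhydrase that handles acid, had the largest ratio of the list, 7.70 (4.64 to 13.5), on 101 UMIs against 18. Slc2a1 was 2.04-fold higher (1.83 to 2.28). Other targets differed less: Vegfa, the vascular growth factor, had a ratio of 1.26 (0.944 to 1.69) and Angptl4, a secreted lipase inhibitor, of 0.772 (0.647 to 0.919).

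Glycolysis genes stood higher by smaller factors. The 17 genes summed to 184 UMIs per 10000 against 120 in cycling cells, and 2 of the 14 compared passed 2-fold, Pfkp (2.55) and Pgk1 (2.05, 1.98 to 2.12), with 0 lower. Over all genes 1.56% were higher and 8.24% lower. Aldoa, which encodes aldolase A, was 1.89-fold higher (1.84 to 1.94), Gpi1 1.74-fold and Ldha 1.33-fold (1.30 to 1.37). Slc16a1, a lactate transporter, had a ratio of 0.802 (0.624 to 1.03). Here the common glycolytic enzymes were abundant in nearly every cell: Ldha had 1 to 49 UMIs per 5000 with a median of 13, and Pkm, pyruvate kinase, 1 to 58 with a median of 13.5.

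Among the genes with the highest ratios were several outside the lists. Hmox1, the heme-degrading enzyme, stood at 6.13 UMIs per 10000 against 0.717, a ratio of 8.55 (7.62 to 9.62), but its median per cell was 0 and 1 cell held 16% of its UMIs. Tnfrsf9, which encodes the costimulatory receptor 4-1BB, was 4.24-fold higher (3.61 to 5.01) on 609 UMIs, and at most 6.40% of these came from 1 cell. Rgcc, a cell cycle regulator, was 3.22-fold higher (2.79 to 3.72) and Tcp11l2 11.2-fold (5.34 to 26.9). Mt1, a metallothionein, was 2.01-fold higher (1.97 to 2.04). Single cells set some of the highest ratios: Ccl4 had 102 UMIs against 1, of which 100 lay in 1 member. Ifitm1 had a ratio of 5.37 with the 6 members rich in leukocyte transcripts and 1.04 when they alone were left out. For that value the cycling group was left unchanged.

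Genes of antigen presentation through MHC class I had a lower summed level than in cycling cells. The 24 genes summed to 70.7 UMIs per 10000 (69.8 to 71.5) against 89.8, and the median log2 ratio of the list was -0.38 beside -0.20 over all genes. Of the 23 compared, 2 were at least 2-fold lower, Psmb9 (0.408, 0.349 to 0.476), an immunoproteasome subunit, and Tap1 (0.419, 0.334 to 0.523), a chain of the peptide transporter, and 0 were higher. With 8.24% of all genes lower, that count is near the background. The main heavy chain genes were closer to equal. H2-D1 had 0 to 40 UMIs per 5000 across members with a median of 8 and a ratio of 0.838 (0.812 to 0.865). H2-K1 had a median of 5 (0 to 25) and a ratio of 0.835 (0.803 to 0.868), and B2m a median of 6 (0 to 30) and a ratio of 0.917 (0.882 to 0.954). H2-Q4 had a ratio of 0.553 and H2-T23 of 1.12 (0.974 to 1.28). The H2 genes are near-identical copies, and reads from BALB/c alleles were counted on a reference of another haplotype, whose part in the levels was not tested.

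Interferon response genes had the largest share of lower genes among the lists compared. Of 25 genes compared 14 were at least 2-fold lower in non-cycling cells and 0 higher, beside 8.24% lower and 1.56% higher over all genes. The list summed to 17.0 UMIs per 10000 against 27.2. Cxcl10, a T cell chemoattractant, had a ratio of 0.147 (0.128 to 0.168), and Gbp2, a GTPase of host defence, of 0.189. Medians per cell lay close together. In cells thinned to 5000 UMIs the list had a median of 6 UMIs in members and 7 in cycling cells, with a highest cell of 83 against 267. One cycling cell held 31.3% of the Cxcl10 UMIs of that group and another 10.0% of the list. Bst2, a membrane protein that tethers viruses, had a ratio of 0.771 (0.731 to 0.812) and Irf1 of 1.17 (1.07 to 1.28). When the limit on Dcn and Lum was lifted in both groups, 6 genes in place of 14 were at least 2-fold lower and the median log2 ratio moved from -1.16 to -0.35. The 7 interferon receptor and kinase genes held none past 2-fold among the 6 compared. Cd274, which encodes PD-L1, had 11 UMIs against 51 (ratio 0.296, 0.139 to 0.575).

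Adhesion was dominated by a few matrix-binding proteins. Of 81 genes 53 had a UMI, the sum was 186 UMIs per 10000 (185 to 188), and Lgals1 and Spp1 made up 62.3% of it. Lgals1, a galectin, was found in every cell, from 6 to 111 UMIs per 5000 with a median of 30.5. Spp1, osteopontin, ran from 0 to 294 with a median of 14.5. The junction genes were sparse. E-cadherin (Cdh1), the 6 claudins of the list, Ocln and Dsg2 had 0 UMIs, N-cadherin (Cdh2) had 129 (0.372 per 10000) and T-cadherin (Cdh13) 489 (1.41). Among integrins, the receptors for matrix, Itgb1 led with 2.44 UMIs per 10000, followed by Itga5 with 1.07, the fibronectin receptor chain, and Itgb4 with 0.528, a laminin receptor chain.

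Over cycling cells 3 of the 35 adhesion genes compared were at least 2-fold higher and 0 lower, beside 1.56% higher and 8.24% lower over all genes. Lgals3, another galectin, had a median of 8 UMIs per 5000 (0 to 40) and a ratio of 2.24 (2.16 to 2.32), and Thbs1, thrombospondin, a ratio of 4.45 (3.17 to 6.37) with 17.1% of its UMIs in 1 cell. Jup, the junction protein plakoglobin, was the third. None of the 9 integrin genes compared passed 2-fold, and Cdh2 had a ratio of 0.654 (0.526 to 0.809).

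Growth factor ligands summed to 25.9 UMIs per 10000 (25.3 to 26.4) from 32 of 48 genes. Of 22 compared, 2 were at least 2-fold higher than in cycling cells and 0 lower, beside 1.56% higher and 8.24% lower over all genes. Ccn1, a matricellular protein, had 0 to 40 UMIs per 5000 with a median of 1 and a ratio of 1.64 (1.54 to 1.75). Of the ligands of the EGF receptor, Areg and Hbegf were named by the rule, and Ereg and Btc were not. Btc (betacellulin) had 130 UMIs against 260 in the deeper cycling cells. Fgf7, named by the rule, had the lowest ratio of the list, on 96 UMIs against 202. Areg (amphiregulin) had a median of 1 (0 to 12) and a ratio of 1.63 (1.51 to 1.75), Hbegf a median of 1 (0 to 9) and a ratio of 0.840 (0.775 to 0.911), and Ereg (epiregulin) a median of 0 (0 to 10) and a ratio of 1.21 (1.07 to 1.37). The 2 past 2-fold were Pgf, placental growth factor, which binds a VEGF receptor (4.97, 3.43 to 7.36), and Inhba, the activin A chain (2.01, 1.71 to 2.36). One member held 17.2% of the Pgf UMIs, and 16.2% of the Inhba UMIs lay in 1 member. Among receptors Egfr itself had 16 UMIs (0.0462 per 10000), and the most counted were Axl (1.54), Nrp2 (0.935) and Fgfr1 (0.834). None of 22 receptors passed 2-fold.

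Of the secreted immune signals, Ccl2, a monocyte attractant, reached 32.1 UMIs per 10000 with a median of 1 per cell and a highest cell of 128, and Cxcl1, a neutrophil attractant, 15 with a median of 0 and a highest cell of 92. Mif was even, with a median of 13 (0 to 44). The chemokine and cytokine list had 2 of 15 genes higher than in cycling cells, Il33 (3.37) and Csf3 (2.55, with 61.0% of its UMIs in 1 cell), and Cxcl5 lower (0.436). Over all genes 1.56% were higher and 8.24% lower. Of the genes of cell cycle entry and replication, 10 of 21 were lower, beside that 8.24% of all genes. These cell cycle genes lie close to the genes that split the groups. Ccnd1 (cyclin D1) stayed at 7.68 UMIs per 10000 with a ratio of 0.762 (0.726 to 0.799).

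**Figure D2:**
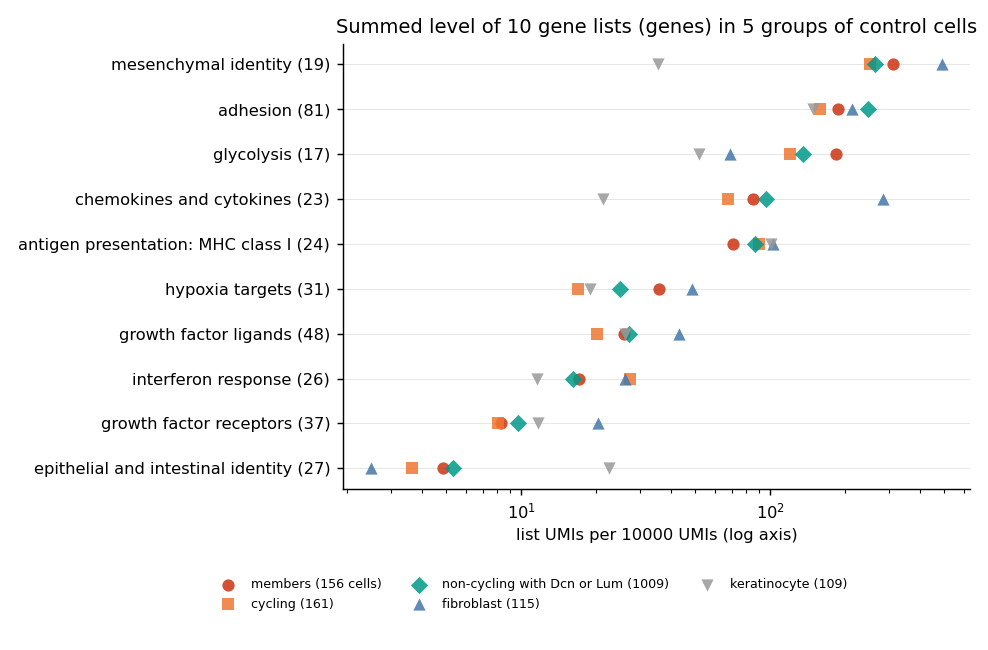
Summed UMIs per 10000 (horizontal, log axis) of 10 gene lists in 5 groups of control cells, with the number of genes or cells in brackets. Among the 3 tumour-like groups (circles, squares and diamonds) the members are highest for hypoxia (35.7) and glycolysis (184) and lowest for MHC class I (70.7), and keratinocytes stand far left for mesenchymal genes (35.2). Krt20, which chose the tumour-like cells, makes up 68.4% of the members' epithelial and intestinal UMIs. The place of the tumour-like groups on that row is thus partly set by the rule.

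Set beside the Dcn-bearing barcodes, the members had fewer genes past 2-fold: 0.798% of 9651 genes were higher and 2.79% lower, 3.59% either way. Hypoxia genes again stood higher on balance, with 3 of 26 higher, 2 lower, a median log2 ratio of 0.44 and a sum of 24.8 UMIs per 10000 in the Dcn-bearing cells. MHC class I had 0 of 23 genes past 2-fold in either direction. Among the lower genes Mmp2, a matrix protease, had 0 UMIs against 325, Mmp3 a ratio of 0.197 (0.164 to 0.234), Cxcl5 of 0.173 (0.140 to 0.211) and Saa3 1 UMI against 280. In the chemokine list 6 of 21 genes were lower, Icam1 had a ratio of 0.17 and Spp1 of 0.477. Dcn and Lum defined these groups, so the differences are descriptions.

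Against 115 fibroblasts of the same library, 7.27% of 6655 genes were at least 2-fold higher in members and 13.3% lower, 20.6% either way. Glycolysis separated the groups, with 10 of 15 genes higher and 2 lower and Pgk1 4.40-fold higher (4.08 to 4.75). Car9 (101 UMIs against 2), Esm1 (6.15-fold), an endothelial and tumour proteoglycan, and Pthlh (5.50-fold), parathyroid hormone-related protein, were also higher. So were the replication genes Mcm2 (8.51-fold, 4.04 to 21.5) and Mcm6 (7.56-fold, 4.25 to 14.8). Of the genes of cell cycle entry and replication, 6 of 18 were at least 2-fold higher in members and 0 lower. The limit on the proliferation genes therefore does not show that the members had left the cell cycle. The hypoxia list did not follow glycolysis here: 6 of 25 genes were higher and 10 lower, and its sum was 48.6 UMIs per 10000 in fibroblasts. Fibroblasts carried more of the growth factor receptors (14 of 22 genes at least 2-fold lower in members) and chemokines (16 of 19), with Cxcl14 at 0 UMIs against 2004. The fibroblast barcodes were shallower, with a median of 8547 UMIs. Against 109 keratinocytes 19% of 6369 genes were higher and 17.3% lower, 36.3% either way, and 14 of 18 cadherin and junction genes were lower in members.

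**Figure D3:**
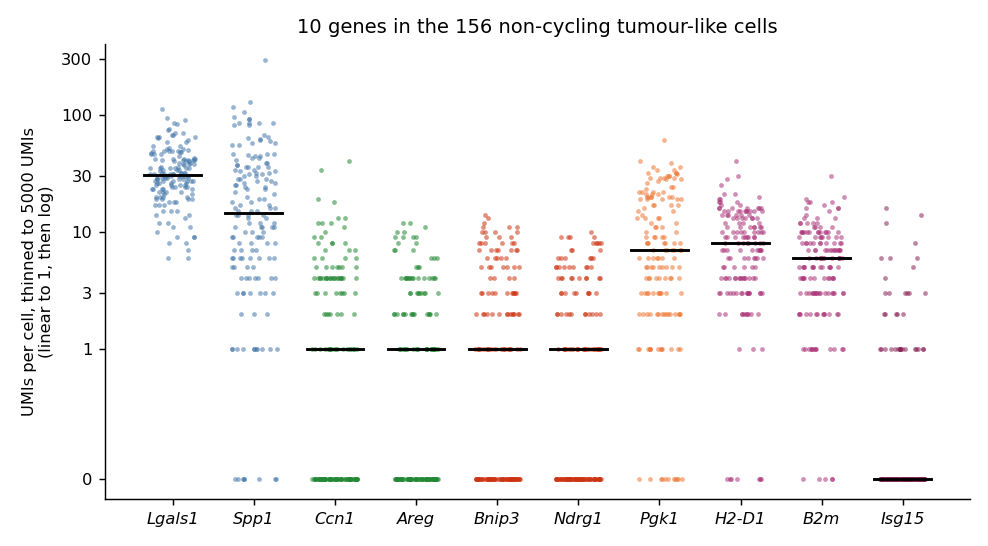
UMIs of 10 genes in each of the 156 members after thinning to 5000 UMIs per cell (vertical axis, linear up to 1 and logarithmic above). Points are cells, black lines medians and colours the gene lists. Lgals1 lies above 5 in every cell, while Ccn1, Areg, Bnip3 and Ndrg1 have medians of 1 and Isg15 of 0.

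Spread between cells was measured after each cell was thinned at random to 5000 UMIs, as the variance over the mean, which is near 1 when cells differ only by counting. At equal relative spread this measure rises with the mean of a gene, so abundant genes reach 2 more easily. Over 4617 genes with a mean of at least 0.1 UMI the median was 1.14 and 7.08% reached 2. Among hypoxia genes 10 of 20 reached 2, led by Ero1l (7.11) and Bnip3 (4.54), and among glycolysis genes 9 of 13, led by Pgk1 (11.2). Of adhesion genes 9 of 29 did, with Spp1 at 44.7, while none of the 6 integrin and 6 junction genes did. Those were sparse, with means of 1.24 UMIs for Itgb1 and 0.744 for Cdh13 against 11.3 for Pgk1 and 8.89 for H2-D1. Their counts therefore do not show that they were more even between cells. Growth factor ligands had 7 of 18, led by Ccn1 (9.56), and interferon response genes 8 of 14. MHC class I had 3 of 20, H2-D1 (4.68), H2-K1 (3.78) and B2m (3.54).

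The widest spread by this measure lay elsewhere. All 17 measured genes of dissociation and heat stress passed 2, with Dnajb1, a heat shock co-chaperone, at 25.8, and so did 10 of 13 chemokines and cytokines, with Ccl2 at 47.4 and Cxcl1 at 37.7. Malat1, a nuclear RNA, ranged from 0 to 202 UMIs per 5000 (63.8), Fth1, ferritin heavy chain, from 1 to 442 (48.5) and Mt1 from 0 to 180 (48.0). Tissue was dissociated before capture, and the part of that step in the stress genes was not tested.

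The hypoxia sum per cell ran from 0 to 83 UMIs per 5000, its median was 10.5, and 38 marked its 90th percentile. In 46 cells (29.5%, 22.5% to 37.3%) it was at least 2 times the median. A Poisson count with the observed mean of 16.5 reaches that same limit in 16% of draws. The limit was set by the observed median, which lay below the mean. The 16% is therefore not the share of Poisson counts at 2 times their own median. When the limit on Dcn and Lum was lifted the share of cells with at least 2 times the median was 18.3%. The same sum in cycling cells had a median of 6, a 90th percentile of 16 and a highest cell of 53. In the 46 cells the glycolysis sum had a median of 149 (62 to 263) against 55.5 (7 to 169) in the other 110, and it was above the median of all members in 44 of 46. MHC class I went the other way, with a median of 26 (10 to 87) against 38 (2 to 105), and 11 of the 46 cells were above the median of all members. Heat stress was higher in the same cells, 65.5 (17 to 211) against 26 (1 to 289), and depth differed little (median of 22816 UMIs before thinning against 19423.5). The ranges overlapped for each of these measures.

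**Figure D4:**
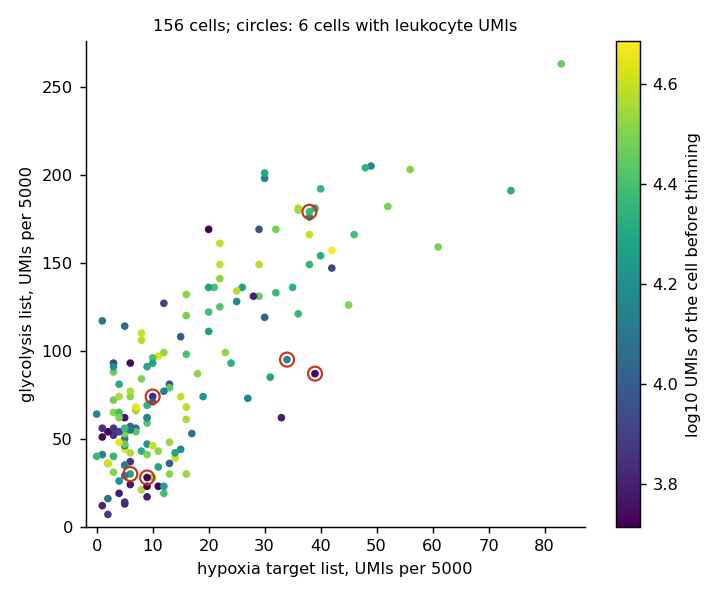
Sum of the hypoxia target list (horizontal) against the glycolysis list (vertical) in each of the 156 members, in UMIs after thinning to 5000 per cell. Colour gives the depth before thinning and red circles the 6 cells with 20 or more leukocyte and MHC class II UMIs. Cells with a hypoxia sum of 21 or more have glycolysis sums between 62 and 263, above the median of all members in 44 of 46.

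Across the 156 members the hypoxia and glycolysis sums had a Pearson correlation of 0.81 and a Spearman correlation of 0.70. These are descriptions over cells of 1 library that share chemistry and free RNA. The genes whose counts tracked the hypoxia sum most closely were Aldoa (0.75), Pgk1 (0.73), Bnip3 (0.72, against the rest of the list), Bsg (0.70), a chaperone of lactate transporters, Gpi1 (0.69), Ldha (0.69) and Slc2a1 (0.69). Tnfrsf9 was among them (0.67). Among 4619 genes, correlations with that sum had their middle value at -0.01 and their 99th percentile at 0.40. Nme2 (-0.47), a nucleotide kinase, Cycs (-0.43), cytochrome c, and Lgals1 (-0.41) had the lowest values. Ddit4 (0.13) and Vegfa (0.13), both in the hypoxia list, were low against the rest of it.

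**Figure D5:**
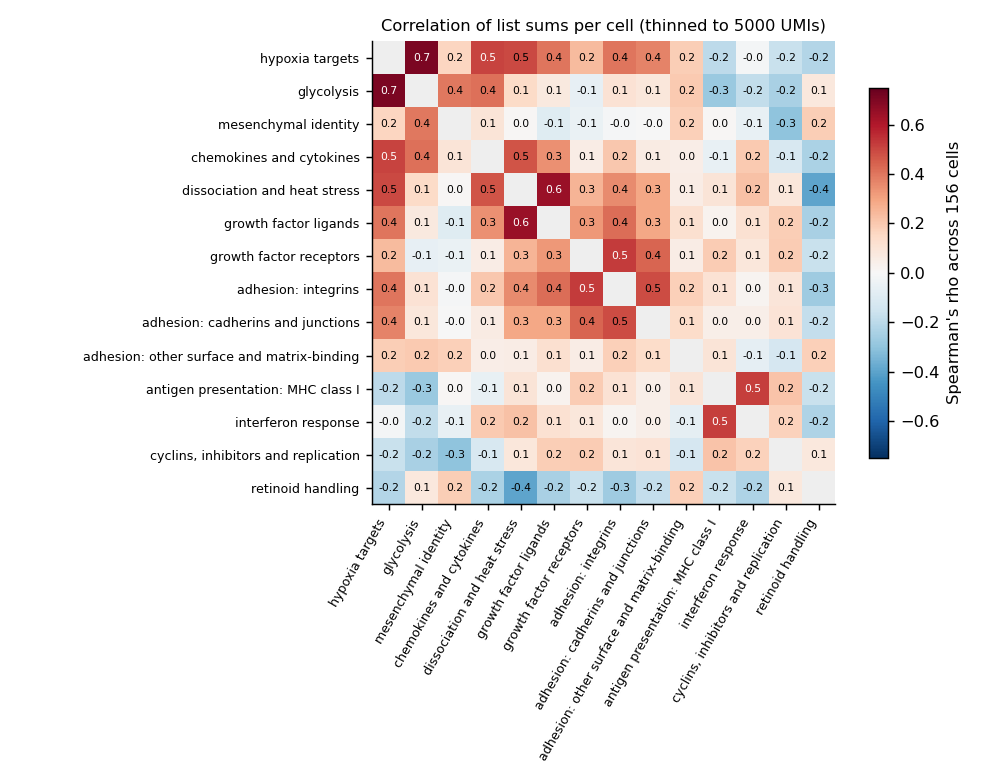
Spearman correlation across the 156 members between the per-cell sums of 14 gene lists, each cell thinned to 5000 UMIs (colour and printed value), with genes shared by a pair of lists left out. Hypoxia and glycolysis form the strongest pair (0.7), growth factor ligands pair with heat stress (0.6), and MHC class I pairs with the interferon response (0.5) and not with hypoxia.

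MHC class I varied with the interferon response (Pearson 0.42, Spearman 0.52) although no gene was shared. Its sum was tracked by Ly6e (0.55), Ifitm3 (0.49) and Bst2 (0.47), all interferon-induced genes, and within the list H2-K1 (0.77) and H2-D1 (0.75) moved with the rest while Canx (-0.04) and Pdia3 (-0.02), general chaperones of the endoplasmic reticulum, did not. Growth factor ligands varied with the stress genes (0.53, 0.65), and Btg2 (0.59), Klf6 (0.49) and Atf3 (0.46), all rapidly induced genes, were among their closest companions. Chemokines followed Nfkbia (0.77), the NF-κB inhibitor gene, and Ptgs2 (0.63), which encodes cyclooxygenase 2. Among adhesion genes Spp1 had a correlation of 0.07 and Lgals1 of -0.38 with the remaining adhesion genes.

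Some of these patterns moved with measures of the barcode itself. The growth factor receptor sum had a Spearman correlation of 0.55 with Malat1 and 0.46 with the mitochondrial share, and the integrin sum 0.41 and 0.31. For the hypoxia sum these were 0.31 and 0.03, with 0.18 for depth, and for MHC class I 0.06 and 0.24, with 0.01 for depth. Their part in the correlations between lists was not tested. The 30 members under 10000 UMIs had 22.6 hypoxia UMIs per 10000 against 36.5 in the other 126, and 39.9 chemokine UMIs against 88.3.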

How the data were processed

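The authors deposited whole-number UMI counts for each gene in each barcode, with no normalization. The submitters' processing notes list Cell Ranger 5.0.0 with the builds mm10 and GRCm38; the annotation release is not given in the sources used here, and both libraries were taken as deposited. The control library had 86478313 UMIs and the anti-CTLA-4 library 19989467. The members and gene lists (26) were chosen with earlier results of these data known. UMIs were summed over the cells of a group and divided by all UMIs of the group, and ratios were taken between groups of the same library, with exact 95% intervals from scipy 1.17.1 that cover counting error only. Each UMI marks a 5′ end, so counts do not scale with transcript length, and levels of different genes were not tested against each other. The fibroblast, keratinocyte, T cell and macrophage barcodes passed the same gene and mitochondrial limits and had fewer than 10 Crabp1 UMIs. Fibroblasts had 0 Ptprc and at least 10 Dcn and Lum UMIs. Keratinocytes had 0 Ptprc, fewer than 2 Dcn and Lum UMIs and at least 10 of Krt5 and Krt14. T cells and macrophages had at least 1 Ptprc UMI, with at least 3 of Cd3 genes in T cells and at least 10 of C1q genes in macrophages. For spread, cells were thinned to 5000 UMIs (numpy 2.4.6, seed 1), with a threshold of 2 on variance over mean. Median log2 ratios had 0.5 UMI added to each sum.

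Scrublet, through scanpy 1.11.5, called 0 of 5482 control barcodes doublets and so had not worked; the 240 highest scores, of which 4 were members, were left out as an alternative instead. Genes named are, per list, those with the most UMIs, the largest spread and the extreme ratios. Over all genes they are the extreme ratios and the closest correlations with a list. Egfr, Ereg, Btc, Cd274, Vegfa, the genes at 0 UMIs and others given beside a list's count were named after their values were seen. Mitochondrial, ribosomal protein, immune receptor segment and sex-linked genes were not named. Ratios and spread were tested on simulated data first. Gene coordinates are from GENCODE M21 (GRCm38).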

Additional observations from a re-analysis of the deposited data

How the results depend on the processing

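The ratios over cycling cells rest on 1 library, and no paired analysis was possible because each group has 1 library and no replicate numbers to pair. Each value was recomputed under 9 planned settings and 4 chosen after seeing the data (fewer where a setting does not bear on a value). The share of members among kept control barcodes, 2.85%, was 2.30% with at least 10000 UMIs, 1.82% with at least 3 UMIs of Krt20, 2.24% with 0 UMIs of the proliferation genes and 21.3% with no limit on Dcn and Lum. The hypoxia level of 35.7 UMIs per 10000 was 36.5 with at least 10000 UMIs, 37.1 with 0 proliferation UMIs, 51.0 with mitochondrial and ribosomal protein UMIs out of the denominator and 26.1 with no limit on Dcn and Lum. The MHC class I level of 70.7 was 69.5 (Krt20), 72.9 (0 proliferation UMIs), 101 (denominator) and 84.7 (no Dcn limit). The adhesion level of 186 was 197 (Krt20), 266 (denominator) and 239 (no Dcn limit). The growth factor ligand level of 25.9 was 25.1 with at least 20 UMIs of Crabp1, 27.4 (Krt20), 36.9 (denominator) and 26.9 (no Dcn limit). The share of members with at least 2 times the median hypoxia sum, 29.5%, was 18.3% without the Dcn limit, 26.9% after thinning to 3000 UMIs and 27.6% in another thinning draw. Of 781 genes past 2-fold over cycling cells (124 higher and 657 lower), 305 were counted at a minimum of 200 UMIs per gene (52 and 253), and without the Dcn limit 393 were higher and 705 lower. The count of hypoxia genes at least 2-fold higher, 9, ran from 7 to 10 over the settings, and that of interferon response genes at least 2-fold lower, 14, from 6 to 16. Barcodes with 20 or more leukocyte and MHC class II UMIs were left out of both groups, which left 150 members and 159 cycling cells. Neither that nor leaving out the 240 highest doublet scores moved any of the 9 values above beyond its interval or by over 1.5 times. Of 784 further gene and list values, 577 kept their value or call, 207 moved and 0 reversed. Only ratios at least 2-fold either way under the main setting could be counted as reversed, by a change of direction. Levels, counts and smaller ratios could not, so the 0 says nothing of them. The cause of the moves was not tested, except that a smaller denominator raises every level and a higher minimum leaves fewer genes.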
